A study of Mus musculus with 6 samples.

Results

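The platelet-derived growth factor (PDGF) family was described in cells of the mouse aorta traced from 2 embryonic origins. It comprised the ligand genes *Pdgfa*, *Pdgfb*, *Pdgfc* and *Pdgfd*, the receptor genes *Pdgfra* and *Pdgfrb*, and the receptor-like gene *Pdgfrl*. The members were taken by gene name, and all 7 names were found among the 24421 rows of the expression matrix. *Pdgfrl* was the most abundant member in all 6 libraries. It was higher in every neural crest library than in any secondary heart field library, as were 5.68% of the 10185 genes tested. This difference did not pass the adjusted test, and 6 of 10 fibroblast markers had the same order. Both kinase receptors were among the 5 most abundant receptor tyrosine kinases in each library. *Pdgfd* and *Pdgfa* made up at least 81.9% of the summed ligand level in each library, and *Pdgfb* was listed at 0 in 5 of 6 libraries.

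RNA was sequenced in bulk from sorted aortic cells in 6 libraries, all from 129S6/SvEv mice at 8 weeks of age, with no treatment given in the labels. The matrix names the columns of both lineages WT, for wild type. Each mouse carried the conditional CAG-Sun1/sfGFP tracer allele, a green fluorescent protein that Cre recombinase switches on. The 3 secondary heart field (SHF) libraries came from mice with the Mef2c SHF Cre allele, and the 3 cardiac neural crest (CNC) libraries from mice with the Wnt1-Cre2 allele. The aortic root and ascending aorta were digested, and living GFP+ cells were sorted. Each Cre allele marks the descendants of an embryonic lineage whatever their later cell type, and no marker of a cell type was used in the sort. The comparison asks how the transcriptomes of cells from these origins differ. Levels are given in TPM, the abundance of a gene as a share of all transcripts of the library. TPM values are scaled for transcript length and sum to the same total in each library, so levels of different genes can be compared within a library while the sequencing depth is unknown. Values of 3 libraries are listed in the order of replicates 1 to 3. The study describes the 3 libraries of a lineage as biological replicates, and neither it nor the labels say how many mice went into each.

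The libraries held from 9255 to 11858 genes above 0 TPM. Markers of the fibroblast, the matrix-producing cell of the aortic wall, summed to 44454 to 63011 TPM over 10 genes in the SHF libraries and to 64347 to 70197 TPM in the CNC libraries. The 12 smooth muscle genes summed to 1695 to 3295 TPM in SHF and 1365 to 2192 TPM in CNC libraries, with *Acta2* between 363 and 956 TPM. The 10 endothelial genes summed to 99.5 to 622 TPM in SHF and to 24.3 to 73.6 TPM in CNC libraries. Cardiomyocyte genes summed to 87.4 to 115.9 TPM in SHF and 0 to 37.9 TPM in CNC libraries with *Myl7* at 0 in all 6, and Schwann cell genes to 1.5 to 15.3 TPM in SHF and 21.4 to 94.4 TPM in CNC libraries. The X-linked transcript *Xist*, listed at 0 in the remaining 4 libraries, reached 52.0 TPM in SHF replicate 2 and 38.8 TPM in replicate 3 of that lineage. The fibroblast, endothelial, cardiomyocyte and Schwann cell sums did not overlap between the lineages, and their part in the PDGF differences was not tested. The smooth muscle, pericyte, leukocyte and platelet sums overlapped. The highest SHF fibroblast sum, 63011 TPM, was close to the lowest CNC fibroblast sum, 64347 TPM. In bulk samples, fewer cells of a type and less RNA per cell cannot be told apart.

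PDGFs are secreted dimers that drive the growth, survival and migration of mesenchymal cells, including smooth muscle cells, pericytes and fibroblasts. PDGF-A and PDGF-C act mainly through PDGF receptor alpha, PDGF-B through both receptors, and PDGF-D mainly through PDGF receptor beta. Ligand binding pairs the receptors, whose kinase domains then phosphorylate each other and recruit signalling proteins. In vessel walls, PDGF-B from endothelial cells recruits mural cells that carry receptor beta, while receptor alpha is widely used to mark fibroblasts. PDGF-C and PDGF-D are secreted in a latent form and need cleavage by proteases before they bind. The product of *Pdgfrl* resembles part of the extracellular region of the receptors and has no kinase domain.

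On mm10 (GRCm38), with the gene limits of GENCODE M21, the ligand genes lie on 4 chromosomes. *Pdgfa* is at chr5:138976014-138997370 on the minus strand, *Pdgfb* at chr15:79995874-80014977 on the minus strand, *Pdgfc* at chr3:81036416-81214040 on the plus strand and *Pdgfd* at chr9:6168584-6378850 on the plus strand. *Pdgfra* is at chr5:75152292-75198215 and *Pdgfrl* at chr8:40926212-40990785, both on the plus strand. Reads from the library kit do not keep the strand, and the exons of *Pdgfa*, *Pdgfc* and *Pdgfra* overlap exons of antisense genes. These are *6330403L08Rik* at *Pdgfa*, *Gm16000* at *Pdgfc* and *Gm42802* at *Pdgfra*, none of which has a row in the matrix, so their reads cannot be told apart from those of the PDGF genes. The next gene after *Pdgfrl* is *Mtus1*, which starts 128 bases beyond its end without overlapping its exons and was at 12.8 to 54.9 TPM.

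Promoter windows of 300 bases, from 250 bases before to 50 after the start, were taken from RefSeq on GRCm38.p6, where 4 of the 7 members had one. Those of the 3 members that were both above 0 in every library and in that table are shown, so that the sequence at the start of the receptor alpha gene can be set beside those of the ligand genes expressed with it. *Pdgfa* has a pair of annotated starts, with windows at chr5:138994232-138994531 (window 1) and chr5:138994895-138995194 (window 2) on the minus strand. The *Pdgfd* window is chr9:6168236-6168535 and the *Pdgfra* window chr5:75152001-75152300, both on the plus strand. Capitals mark matches to the GC box letters GGGCGG, on either strand.
Pdgfa window 1: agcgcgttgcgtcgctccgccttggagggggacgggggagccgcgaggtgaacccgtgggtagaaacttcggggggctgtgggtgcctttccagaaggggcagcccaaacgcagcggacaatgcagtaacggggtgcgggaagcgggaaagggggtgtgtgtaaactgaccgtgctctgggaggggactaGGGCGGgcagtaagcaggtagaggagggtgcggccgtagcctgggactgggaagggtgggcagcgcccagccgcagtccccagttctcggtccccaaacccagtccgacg
Pdgfa window 2: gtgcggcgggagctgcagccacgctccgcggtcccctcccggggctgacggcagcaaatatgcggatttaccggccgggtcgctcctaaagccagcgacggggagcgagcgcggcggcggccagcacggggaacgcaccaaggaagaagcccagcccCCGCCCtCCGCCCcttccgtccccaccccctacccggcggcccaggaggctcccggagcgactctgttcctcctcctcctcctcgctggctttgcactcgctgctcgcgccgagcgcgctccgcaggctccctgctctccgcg
Pdgfd: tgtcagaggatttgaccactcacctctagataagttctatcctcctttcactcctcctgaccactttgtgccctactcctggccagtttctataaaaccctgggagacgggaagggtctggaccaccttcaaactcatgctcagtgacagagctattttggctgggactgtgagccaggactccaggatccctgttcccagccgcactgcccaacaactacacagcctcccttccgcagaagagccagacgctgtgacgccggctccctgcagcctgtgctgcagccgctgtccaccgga
Pdgfra: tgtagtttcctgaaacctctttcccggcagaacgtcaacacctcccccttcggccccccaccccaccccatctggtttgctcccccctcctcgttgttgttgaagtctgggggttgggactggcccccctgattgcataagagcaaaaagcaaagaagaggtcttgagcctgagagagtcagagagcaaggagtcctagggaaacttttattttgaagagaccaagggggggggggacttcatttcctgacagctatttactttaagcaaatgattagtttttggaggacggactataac
Window 1 of *Pdgfa* held 1 GC box match and window 2 held 2, and the *Pdgfd* and *Pdgfra* windows held 0. The GC content was 67% and 73.3% in the *Pdgfa* windows, 56.7% at *Pdgfd* and 51% at *Pdgfra*, and 94.5% of the 32851 promoter windows had a lower content than window 2 of *Pdgfa*. The GC box letters occur in 35.7% of all promoter windows. Of the other letters searched on both strands, TATAAA matched 1 time, in the *Pdgfd* window, and occurs in 13.6% of all windows. Neither CCAAT (37.4% of windows) nor GCGGGGGCG, the letters bound by EGR1 (2.91%), matched in these 4 windows, nor in that of *Pdgfc*. GCGGGGGCG can share letters with a GC box where they lie end to end. A match of letters is a description of the window and not a binding site.

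Among the ligand genes, *Pdgfd* and *Pdgfa* were detected in all 6 libraries, and *Pdgfc* and *Pdgfb* were not. *Pdgfd*, whose product acts mainly on receptor beta, was at 47.2, 37.7 and 56.1 TPM in the SHF libraries and at 44.7, 113.4 and 74.8 TPM in the CNC libraries. CNC replicates 2 and 3 lay above all SHF libraries and CNC replicate 1 lay within their range. The means were 47.0 ± 9.20 TPM in SHF and 77.6 ± 34.5 TPM in CNC (SD, n = 3 each). On the log2(TPM + 1) scale, which understates the change of low genes, SHF minus CNC was -0.63 (SE 0.55, 95% interval -1.85 to 0.59, limma adjusted p = 0.895), and 0% of all genes tested passed the adjusted threshold of 0.05. *Pdgfa*, which encodes a ligand of receptor alpha, was at 27.8, 82.2 and 32.9 TPM in the SHF libraries and at 31.3, 50.5 and 119.7 TPM in the CNC libraries. The lineages overlapped over most of their ranges, with SHF replicate 2 and CNC replicate 3 standing above the other libraries of their lineage. The means were 47.6 ± 30.1 TPM and 67.2 ± 46.5 TPM (SD, n = 3 each), and the log2 difference was -0.43 (SE 0.69, 95% interval -1.95 to 1.08, limma adjusted p = 0.932). Without CNC replicate 3 the *Pdgfa* difference was 0.087, without SHF replicate 1 it was -0.14 and without SHF replicate 2 it was -0.91. The *Pdgfd* difference was -0.98 without CNC replicate 1 and -0.31 without CNC replicate 2. For both ligands the interval covers differences in either direction.

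*Pdgfc*, the other ligand of receptor alpha, was at 16.6 TPM in SHF replicate 1, 16.1 TPM in CNC replicate 3 and 0.19 TPM in CNC replicate 1, and was listed at 0 in the other 3 libraries. Its signal therefore came almost entirely from 1 library of each lineage, and these were the libraries with the most genes above 0 TPM, 11858 in SHF replicate 1 and 11334 in CNC replicate 3, against 9255 to 10698 in the others. Such gaps were common at this level. Of the 3503 genes whose mean lay within 2-fold of that of *Pdgfc*, 75.5% were listed at 0 in at least 1 library and 33.7% in at least 3, so a 0 for *Pdgfc* is given as a listed value and not as absence. *Pdgfb*, which encodes the ligand of both receptors made by endothelial cells and platelets, was at 1 TPM in CNC replicate 2 and listed at 0 in the other 5 libraries. That library also had the highest summed level of 10 leukocyte genes, 128.8 TPM against 7.96 to 26.9 TPM in the others, and the only signal of the platelet gene *Pf4*, at 23.2 TPM. The leukocyte genes *Ptprc*, *Adgre1*, *Cd3e* and *Itgam* and the platelet genes *Ppbp*, *Gp9* and *Gp6* were nonetheless listed at 0 in all 6 libraries. In SHF replicates 2 and 3 the endothelial marker *Pecam1* was at 147.5 and 141.6 TPM while *Pdgfb* was listed at 0. Whether blood cells or endothelial cells contributed the *Pdgfb* signal was not tested. Both genes fell below the filter of 1 TPM in at least 3 libraries and were not part of the limma test, and no fold between lineages is given for either.

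**Figure D1:**
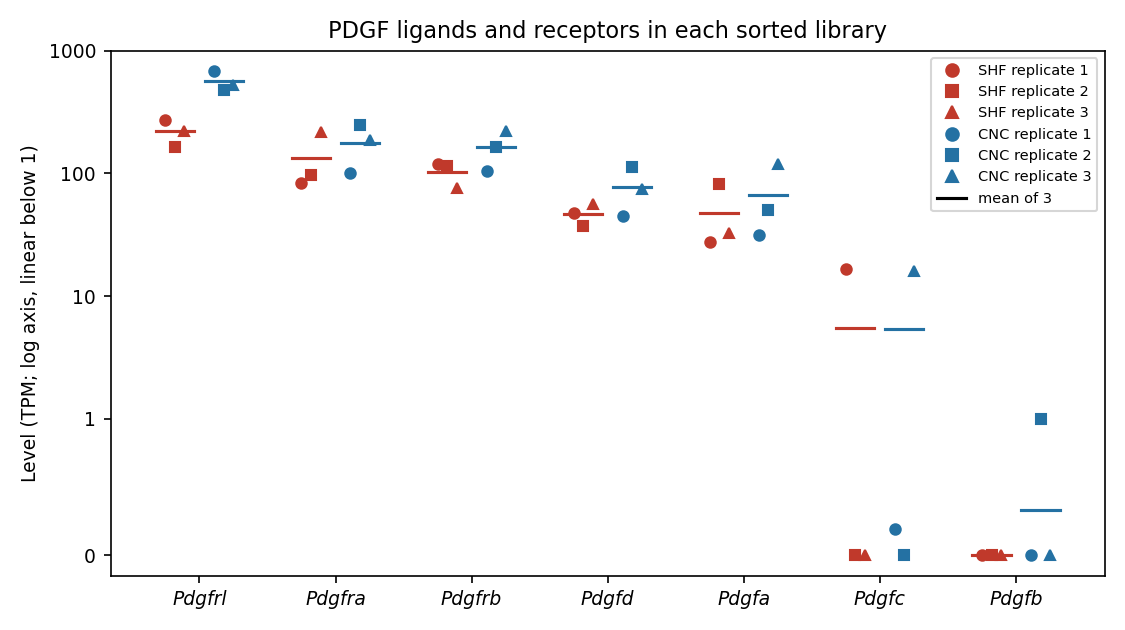
Level of each PDGF member in TPM (vertical axis, logarithmic above 1 and linear below) in the 3 SHF and 3 CNC libraries, with a point per library and a bar at the mean of each lineage. Pdgfrl is the only member whose lineages do not overlap, while Pdgfc and Pdgfb are listed at 0 in 3 and 5 libraries. Every CNC library lies above every SHF library in 5.68% of all genes tested, and the reverse holds in 6.11%.

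Both kinase receptors were detected in every library at levels above those of the ligands. *Pdgfrb*, the gene of the receptor of mural cells, lies at chr18:61045150-61085061 on the plus strand, with *Csf1r* 15536 bases downstream. *Pdgfra* was at 83.8, 97.4 and 216.0 TPM in the SHF libraries and at 100.7, 247.4 and 187.8 TPM in the CNC libraries. The lineages overlapped, with SHF replicate 3 above 2 of the 3 CNC libraries. The means were 132 ± 72.7 TPM in SHF and 179 ± 73.8 TPM in CNC (SD, n = 3 each), a log2 difference of -0.47 (SE 0.49, 95% interval -1.55 to 0.62, limma adjusted p = 0.904). Without SHF replicate 3 the *Pdgfra* difference was -0.88, and without CNC replicate 2 it was -0.18. *Pdgfrb* was at 119.9, 115.0 and 75.8 TPM in the SHF libraries and at 103.8, 165.7 and 221.6 TPM in the CNC libraries. As for *Pdgfd*, CNC replicates 2 and 3 lay above all SHF libraries, and CNC replicate 1 lay below SHF replicates 1 and 2. The means were 104 ± 24.2 TPM and 164 ± 58.9 TPM (SD, n = 3 each), and the log2 difference was -0.62 (SE 0.43, 95% interval -1.57 to 0.34, limma adjusted p = 0.884). Markers of pericytes, mural cells that carry receptor beta, summed to 250 to 586 TPM over 6 genes in SHF and to 430 to 567 TPM in CNC libraries.

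Among 58 receptor tyrosine kinase genes, of which 11 were listed at 0 in all libraries and 32 had a median of at least 1 TPM, *Pdgfra* was at rank 2 and *Pdgfrb* at rank 3 by median level. Over the single libraries *Pdgfra* ranged from rank 2 to rank 5 and *Pdgfrb* from rank 2 to rank 4. Only *Axl*, which encodes a receptor of the growth arrest-specific ligand GAS6, stood above them, with a median of 276 TPM against 144 TPM for *Pdgfra* and 117 TPM for *Pdgfrb*, and it was at rank 1 in all 6 libraries. *Fgfr1*, a fibroblast growth factor receptor, was next at a median of 98.4 TPM and ranged from rank 3 to rank 10. The nearest relatives of the PDGF receptors were far lower. *Kit*, the stem cell factor receptor, was at 6.65 TPM in SHF replicate 1 and listed at 0 elsewhere, and *Flt3* was listed at 0 in all 6 libraries. *Csf1r*, the macrophage growth factor receptor whose gene lies next to *Pdgfrb*, was at 25.9 TPM in CNC replicate 2, the library with the highest leukocyte sum, and at no more than 3.08 TPM elsewhere. The VEGF receptors *Kdr* and *Flt1* reached 32.2 and 21.0 TPM in SHF replicate 3 and were listed at 0 in at least 1 library each.

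**Figure D2:**
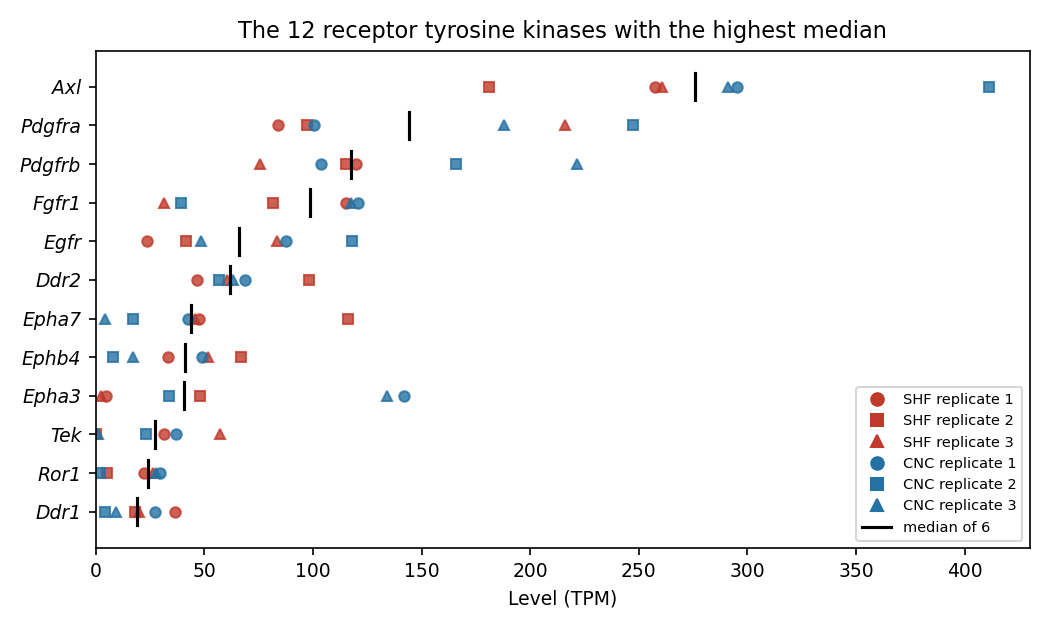
Receptor tyrosine kinases with the highest median TPM over the 6 libraries (horizontal axis, from 0), with a point per SHF and CNC library and a line at the median. Pdgfra (median 144 TPM) and Pdgfrb (117 TPM) stand below Axl (276 TPM) and above the other kinases by median.

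*Pdgfrl* was at 275.2, 164.7 and 220.2 TPM in the SHF libraries and at 689.4, 483.2 and 521.9 TPM in the CNC libraries. The lineages did not overlap, and the lowest CNC library was 1.76 times the highest SHF library. Every CNC library lay above every SHF library in 5.68% of the 10185 genes tested. The means were 220.0 ± 55.2 TPM in SHF and 565 ± 110 TPM in CNC (SD, n = 3 each), a ratio of 2.57. The log2 difference, SHF minus CNC, was -1.37 (SE 0.32, 95% interval -2.07 to -0.67). Its unadjusted limma p was 0.00128 and its adjusted p 0.475, which did not pass the threshold of 0.05. An exact two-sided permutation test of this gene alone gave p = 0.1, the smallest that 3 libraries against 3 allow. *Xist* was listed at 0 in SHF replicate 1, where the Y-linked *Ddx3y* was at 61.3 TPM, and in the CNC libraries, where *Ddx3y* was at 42.2 to 52.8 TPM. In SHF replicates 2 and 3 *Ddx3y* was listed at 0, so these sex-linked transcripts were partly confounded with lineage. The part of sex-linked differences in the *Pdgfrl* result and in the other comparisons between lineages was not tested.

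Some fibroblast markers were ordered like *Pdgfrl*. Of the 10 fibroblast genes, 6 were higher in every CNC library than in any SHF library (*Col1a1*, *Col3a1*, *Pi16*, *Clec3b*, *Serpinf1* and *Mfap5*), against 5.68% of all genes tested, while the lineages of *Dcn*, *Lum*, *Dpt* and *Gsn* overlapped. The median log2 difference of the list was -0.60, and 0 of 10 passed the adjusted limma test. Their summed level was 47989, 44454 and 63011 TPM in the SHF libraries and 70197, 64347 and 65668 TPM in the CNC libraries. By mean over all 6 libraries the most abundant genes of this sum were *Gsn* (13900 to 31392 TPM) and *Dcn* (11604 to 14863 TPM), whose lineages overlapped, and *Col3a1* (6770 to 8644 TPM in SHF, 9250 to 17544 TPM in CNC), whose lineages did not. Relative to each 1000 TPM of this sum, *Pdgfrl* was at 5.73, 3.70 and 3.49 TPM in the SHF libraries and at 9.82, 7.51 and 7.95 TPM in the CNC libraries. On this scale the lineages did not overlap, with a log2 difference of -0.99, which is 1.99-fold (exact two-sided permutation p = 0.1).

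Relative to each of the 10 fibroblast genes in turn, *Pdgfrl* was higher in every CNC library than in any SHF library for 7, and the log2 difference ran from -1.47 to 0.11. With the 4 markers whose own lineages overlapped, such as *Dcn* at -1.25, the difference ran from -1.47 to -1.08. With the 6 markers that were themselves higher in every CNC library, it ran from -0.82 to 0.11, and the lineages of *Pdgfrl* overlapped for 3 of these. These log2 differences are the difference of *Pdgfrl* less that of the marker, so they are smaller by construction for markers higher in CNC. Relative to each 1000 TPM of *Col1a1*, a fibrillar collagen chain, *Pdgfrl* was at 60.6, 41.1 and 50.1 TPM in the SHF libraries and at 58.5, 66.0 and 40.8 TPM in the CNC libraries, a log2 difference of -0.11 (exact two-sided permutation p = 0.8). Relative to *Pi16* the difference was -0.13 (exact two-sided permutation p = 0.8) and relative to *Clec3b* it was 0.11 (exact two-sided permutation p = 0.7). No exact p was below 0.1, the smallest that 3 libraries against 3 allow, and all of these scalings were chosen after the data were seen.

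**Figure D3:**
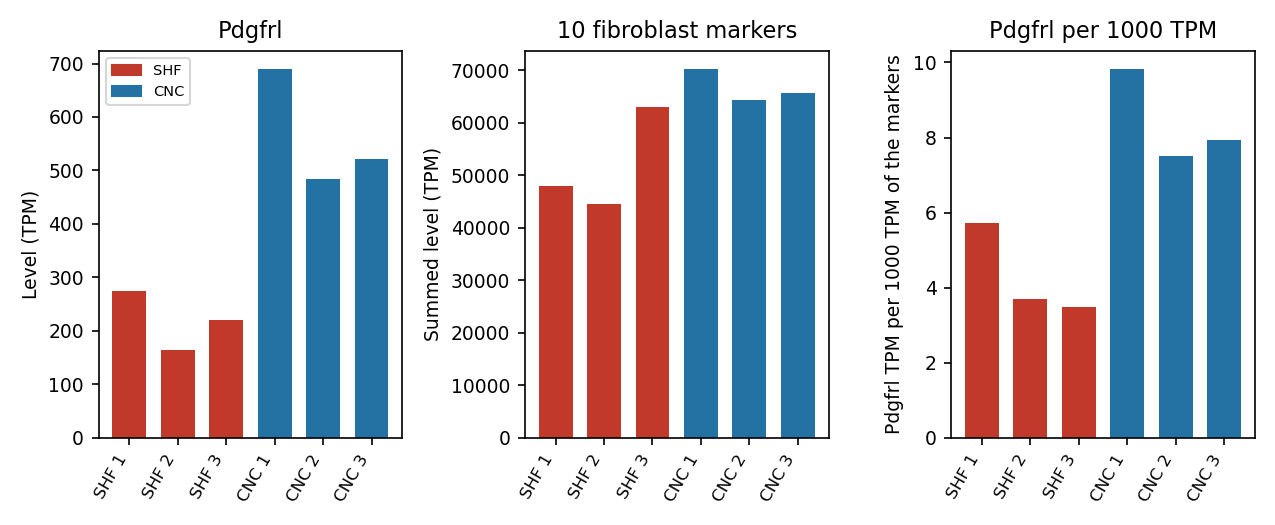
Bars for each SHF and CNC library of Pdgfrl in TPM, of the summed TPM of 10 fibroblast markers, and of Pdgfrl per 1000 TPM of those markers (vertical axes, from 0). Every CNC bar is above every SHF bar in all 3 panels. The highest SHF marker sum is 63011 TPM and the lowest CNC marker sum 64347 TPM. Pdgfrl is at 3.49 to 5.73 TPM per 1000 in SHF and 7.51 to 9.82 in CNC libraries.

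The PDGF genes spanned a wide range of levels. The medians over the 6 libraries were 379.2 TPM for *Pdgfrl*, 144 TPM for *Pdgfra*, 117 TPM for *Pdgfrb*, 51.6 TPM for *Pdgfd*, 41.7 TPM for *Pdgfa*, 0.095 TPM for *Pdgfc* and 0 for *Pdgfb*. By mean level *Pdgfrl* was at place 396 of the 24421 rows, the kinase receptors at 1004 and 1160, *Pdgfd* and *Pdgfa* at 2314 and 2467, *Pdgfc* at 9142 and *Pdgfb* at 13417. Members were compared within libraries over the 21 pairs by an exact two-sided sign-flip test of the log2(TPM + 1) difference. Of these, 18 pairs passed the threshold, each with an exact p of 0.0312, the smallest that 6 libraries allow, and an adjusted p of 0.0365. The 3 pairs that did not pass were neighbours in the order. *Pdgfra* exceeded *Pdgfrb* by 0.17 ± 0.74 (SD, n = 6, exact adjusted p = 0.688) and was the higher gene in 2 of 6 libraries, *Pdgfd* exceeded *Pdgfa* by 0.23 ± 0.90 (4 of 6 libraries, exact adjusted p = 0.525), and *Pdgfc* was above *Pdgfb* in 3 of 6 libraries (exact adjusted p = 0.414). Between the other neighbours the mean log2 difference was 1.28 ± 0.93 for *Pdgfrl* over *Pdgfra* and 1.11 ± 0.50 for *Pdgfrb* over *Pdgfd* (SD, n = 6 each), and *Pdgfa* was above *Pdgfc* in all 6 libraries. No size is given for differences from *Pdgfc* or *Pdgfb*, since the libraries listed at 0 make it depend on the pseudocount. In these TPM values the order was thus the receptor-like gene, both kinase receptors, the ligands *Pdgfd* and *Pdgfa*, and then *Pdgfc* and *Pdgfb*. No order was shown between the kinase receptors, between *Pdgfd* and *Pdgfa*, or between *Pdgfc* and *Pdgfb*. The test measures how consistent a difference was between libraries, and cannot reveal a bias of a gene common to all of them.

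The balance of the receptors varied between single libraries. The ratio of *Pdgfra* to *Pdgfrb* in TPM was 0.699, 0.846 and 2.85 in the SHF libraries and 0.970, 1.49 and 0.848 in the CNC libraries. Receptor alpha exceeded receptor beta in SHF replicate 3 and CNC replicate 2 only. The log2 ratio differed between lineages by 0.15 (0.25 ± 1.09 in SHF against 0.10 ± 0.42 in CNC, SD, n = 3 each, exact two-sided permutation p = 1), and without SHF replicate 3 it was -0.47. The ratio of *Pdgfrl* to the sum of both kinase receptors was 1.35, 0.775 and 0.755 in SHF and 3.37, 1.17 and 1.27 in CNC libraries. Here SHF replicate 1 lay above CNC replicates 2 and 3, and the log2 difference of -0.89 had an exact two-sided permutation p of 0.3.

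The summed ligand level was 91.6, 119.9 and 88.9 TPM in the SHF libraries and 76.1, 165 and 211 TPM in the CNC libraries. CNC replicate 1 was the lowest of all 6 libraries and the other 2 CNC libraries were the highest. On the log2 scale the sum was 6.65 ± 0.24 in SHF and 7.12 ± 0.76 in CNC (SD, n = 3 each), a difference of -0.48 (exact two-sided permutation p = 0.4) that was -0.90 without CNC replicate 1 and -0.17 without CNC replicate 3. *Pdgfd* made up 51.5%, 31.4% and 63.0% of the ligand sum in SHF and 58.7%, 68.8% and 35.5% in CNC libraries, so that *Pdgfa* was the more abundant ligand in SHF replicate 2 and CNC replicate 3. The sum of both kinase receptors was higher than that of the ligands in every library, with ligand to receptor ratios of 0.450, 0.565 and 0.305 in SHF and 0.372, 0.399 and 0.514 in CNC libraries. These ratios overlapped between the lineages and describe transcripts, not proteins.

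**Figure D4:**
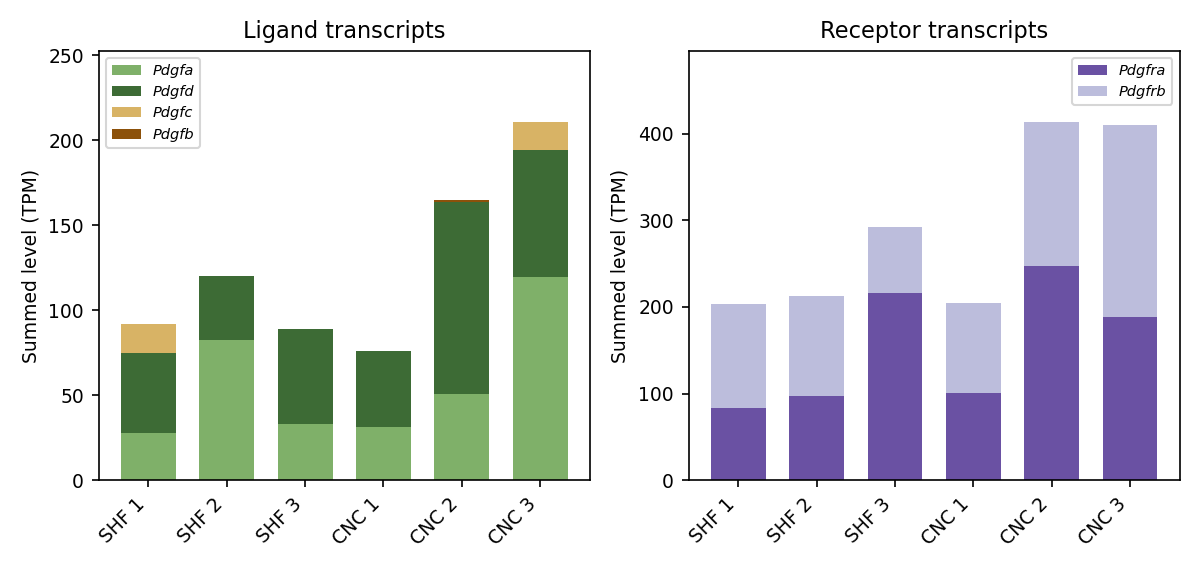
Summed TPM of the PDGF ligand genes and of the kinase receptor genes in each SHF and CNC library, stacked by gene (vertical axis in TPM, from 0). The receptor sum exceeds the ligand sum in all 6 libraries, and Pdgfd and Pdgfa make up at least 81.9% of each ligand sum.

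The differences between lineages were set against those of the whole matrix. In the limma fit over 10185 genes, 0% passed the adjusted threshold in either direction, and 0 of the 5 tested PDGF genes did. At an unadjusted p under 0.05, 3.17% of all genes were higher in CNC and 2.69% higher in SHF, and of the 5 PDGF genes 1 (*Pdgfrl*) was higher in CNC and 0 in SHF. Every CNC library lay above every SHF library for 1 of 5 PDGF genes (*Pdgfrl*), against 5.68% of all genes, and the reverse held for 0 of 5, against 6.11%. All 5 log2 differences were below 0, against 48.8% of all genes, whose median was 0.02, but without CNC replicate 3 that of *Pdgfa* was 0.087. The fit had a median SE of 1.14 over all genes, while the SEs of the PDGF genes ran from 0.32 to 0.69. By unadjusted p *Pdgfrl* stood at place 24 of the 10185 genes, and 12.5% of all genes had a log2 difference at or below that of *Pdgfrl*.

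**Figure D5:**
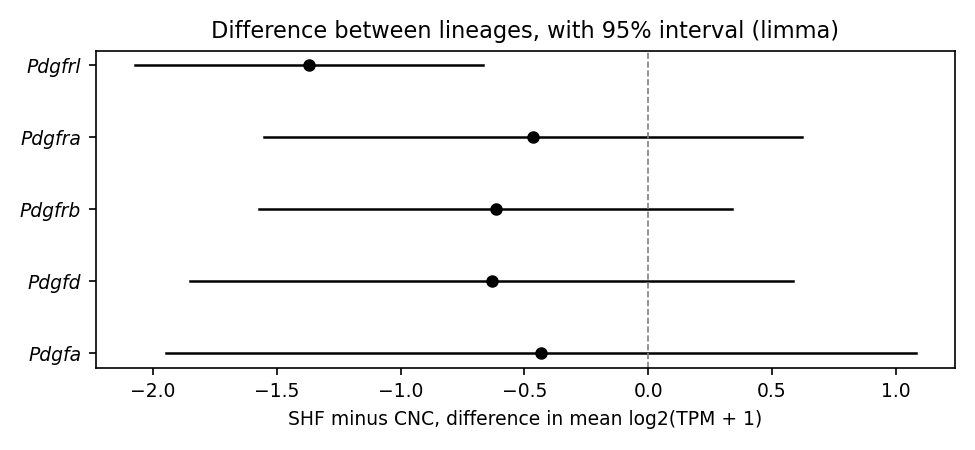
Log2 difference of the 5 tested PDGF genes (horizontal axis, SHF minus CNC, on the log2(TPM + 1) scale), with points for the limma estimate and bars for the 95% interval. All 5 estimates lie below 0, and only the interval of Pdgfrl, from -2.07 to -0.67, does not reach 0.

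The genes around the receptors were described from 7 lists. Among 9 tested genes of ligand processing and matrix binding, 0 passed the adjusted test and the median log2 difference was -0.56. Its most abundant gene was *Sparc*, which encodes a matrix glycoprotein able to bind PDGF, at 3820, 2210 and 2401 TPM in the SHF libraries and 7374, 5093 and 9148 TPM in the CNC libraries. As with *Pdgfrl*, the lineages of *Sparc* did not overlap (5.68% of all genes, 1 of 9 in the list), and its log2 difference was -1.36 (limma adjusted p = 0.475). *Plat*, which encodes the protease that activates PDGF-C, was at 128 ± 60.1 TPM in SHF and 200.1 ± 46.4 TPM in CNC, and *Plau*, which encodes the protease that activates PDGF-D, was at 4.13, 4.04 and 38.0 TPM in SHF and 29.0, 29.7 and 20.7 TPM in CNC libraries. *Lrp1*, a co-receptor of receptor beta, was at 224.9 ± 27.9 TPM in SHF and 192.1 ± 7.92 TPM in CNC (SD, n = 3 each), and *A2m*, whose product binds PDGF in plasma, was listed at 0 in all 6 libraries.

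Downstream of the receptors, 0 of 23 tested adaptor and effector genes passed the adjusted test, with a median log2 difference of 0.18, and 1 of 23 was higher in SHF at an unadjusted p under 0.05, against 2.69% of all genes. This was *Map2k1*, a kinase of the MAP kinase cascade, at 82.4, 132.2 and 118.8 TPM in the SHF libraries and 57.2, 35.7 and 46.8 TPM in the CNC libraries (log2 difference 1.23, limma adjusted p = 0.796). Every SHF library of *Map2k1* lay above every CNC library, as in 6.11% of all genes. Of 14 tested negative regulators 0 passed, with a median of 0.29. *Spry2*, a Sprouty inhibitor of receptor kinase signalling, was at 78.6, 120.9 and 113.8 TPM in the SHF libraries and 71.5, 69.1 and 48.8 TPM in the CNC libraries. It and *Spry4* (18.6 to 27.7 TPM in SHF, 4.15 to 12.9 TPM in CNC) were higher in every SHF library than in any CNC library, and *Socs1* (1.14 to 17.8 TPM in SHF, 20.1 to 36.5 TPM in CNC), a suppressor of cytokine signalling, showed the reverse order. These were 2 of 14 and 1 of 14 genes, against 6.11% and 5.68% of all genes. Of 10 tested immediate early and chemokine genes that PDGF can induce, 0 passed, with a median of 0.34. *Egr1*, a transcription factor of this group, was at 1005 to 1673 TPM over the 6 libraries, and the list summed highest in SHF replicate 1, at 13713 TPM against 4521 to 8682 TPM in the others. Enzymatic digestion of tissue can also induce immediate early genes, and its part here was not tested.

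Among the relatives of the ligands, 0 of 5 tested genes passed the adjusted test, with a median log2 difference of 0.71. The most abundant was *Figf*, which encodes VEGF-D, at 95.1 ± 22.1 TPM in SHF and 67.5 ± 40.0 TPM in CNC (SD, n = 3 each). *Vegfc*, a lymphatic growth factor and the only one of the 5 higher in SHF at an unadjusted p under 0.05 (2.69% of all genes), was at 18.1, 89.7 and 25.6 TPM in SHF and at 22.9 TPM in CNC replicate 3, and was listed at 0 in CNC replicates 1 and 2. Only through its SHF libraries did *Vegfc* meet the filter of 1 TPM in at least 3 libraries, so the filter partly sets this result. Of the relatives of the receptors, 0 of 4 tested passed, with a median of 0.53. In the list of receptor tyrosine kinases 0 of 35 tested genes passed and the median was 0.18, with 16 of the 35 below 0. These included the kinase receptors of the PDGF family, at -0.47 and -0.62, and *Axl*, at -0.51.

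Genes whose level followed a PDGF gene most closely were sought among the 5234 genes with at least 1 TPM in all libraries, by Pearson's r of log2(TPM + 1) over the 6 libraries. For *Pdgfrl* these were *Tyk2*, a Janus kinase (r = 0.994), *Raver1* (0.985) and *Srpx* (0.974). For *Pdgfra* they were *C330006A16Rik* (r = 0.981), *Xdh* (0.955) and the chemokine *Ccl11* (0.952), and for *Pdgfrb* the mitochondrial respiratory chain genes *Uqcrb* (0.976) and *Uqcrc2* (0.956) with *Pard3b* (0.964) between them. For *Pdgfd* they were *Nox4*, an NADPH oxidase (r = 0.988), *Ptges*, a prostaglandin synthase (0.982), and *Sh3pxd2a* (0.981), and for *Pdgfa* they were *Tmed10* (0.966), *Fibin* (0.962) and *Kazald1* (0.949). These values were picked as the highest of 5234 over libraries that share their lineage and depth of gene detection, and they describe these libraries only. Among the 10 pairs of PDGF genes above 0 in all libraries, the closest was *Pdgfra* with *Pdgfd*, with r = 0.835 (exact permutation p = 0.0292, adjusted p = 0.292) and Spearman's rho of 0.771 (exact permutation p = 0.103, adjusted p = 0.892). Without the 2 libraries farthest from the median of *Pdgfra*, SHF replicate 1 and CNC replicate 2, r was 0.831. With 2 libraries left out in this way for each pair, r ran from -0.754 (*Pdgfd* with *Pdgfa*) to 0.960 (*Pdgfrl* with *Pdgfrb*). *Pdgfra* with *Pdgfd* was thus not the closest pair in that check. Its relation did not pass the threshold after adjustment over the 10 pairs.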

How the data were processed

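Living GFP+ cells of the SHF and CNC lineages were sorted, and their RNA was amplified by the SmartSeq2 protocol without molecular identifiers. The authors estimated gene levels with RSEM 1.2.25, using bowtie2 on mm10, and deposited TPM values in a single matrix. Their gene annotation is not given in the sources used here. Samples were grouped by the lineage in their labels, and each column was matched by its library code.

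The lineages were compared on log2(TPM + 1) by limma 3.58.1 (R 4.3.3), using lmFit and then eBayes with its trend option. Genes were kept where 3 or more of the 6 libraries reached 1 TPM, with Benjamini-Hochberg adjustment over all of them and a threshold of 0.05. The fit was tested on simulated data. Members were compared within libraries by exact sign-flip tests, and single values by exact permutation tests. The members and gene lists were chosen with earlier results of these data known. Besides the members, genes could be named that were among the 3 with the highest mean TPM of a pathway or marker list, called, listed at 0 throughout in a marker list, or among the 3 most like a member. Names given for non-overlap or unadjusted p, and *A2m*, *Plau*, *Spry4*, *Kit*, *Flt3*, *Fgfr1*, *Mtus1*, *Ndufa4l2*, *Xist* and *Ddx3y*, were chosen after their values were seen. Alternatives covered the pseudocount, filter, scaling, eBayes trend, replicate block and left-out libraries. Positions were matched by symbol to GENCODE M21, and promoters to RefSeq. Plots were made with Python 3.11.15 and matplotlib 3.10.9. The single-cell data were not analysed here, and 1 marker gene is not reported here.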

Additional observations from a re-analysis of the deposited data

How the results depend on the processing

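For the 5 tested PDGF genes, 79 of 80 other fits kept the sign of the log2 difference and stayed short of the threshold. Fits that changed only the filter, the eBayes trend or the replicate block could not move the difference, only its p. The exception among the 80 was *Pdgfa*, whose difference of -0.43 became 0.087 without CNC replicate 3. Over these fits the difference ran from -1.55 to -1.18 for *Pdgfrl*, with adjusted p from 0.310 to 0.969, from -0.88 to -0.18 for *Pdgfra*, from -0.91 to -0.37 for *Pdgfrb*, from -0.98 to -0.31 for *Pdgfd* and from -0.95 to 0.087 for *Pdgfa*. With a pseudocount of 5, 1 gene of the whole matrix (*Gm13305*, not a PDGF gene) passed the adjusted threshold in place of 0. Relative to *Clec3b*, a scaling chosen after seeing the data, the *Pdgfrl* difference was 0.11.

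With 1 library left out, the number of pairs of PDGF genes past the threshold was 0 to 0 in place of 18, since 5 libraries cannot give an exact p below 0.0625. The mean log2 ratio of *Pdgfra* to *Pdgfrb* over the libraries ran from -0.091, without SHF replicate 3, to 0.31, and its difference between lineages from -0.47, without SHF replicate 3, to 0.53, with -0.02 without CNC replicate 3. The difference of the ligand sums ran from -0.90 to -0.17. The cause was not tested. Replicate numbers did not pair the libraries, with correlations of -0.011, -0.004 and -0.011 between same-numbered libraries, and with a replicate block 0 genes passed. In this balanced design the block cannot move a mean difference. The receptor ratio difference of 0.15 and the ligand sum difference of -0.48 were therefore unchanged by construction. Depth is unknown, which limits what a listed 0 of *Pdgfb* or *Pdgfc* can show, and 3 libraries a lineage limit every comparison between lineages.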

Other observations

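Of the 35 receptor tyrosine kinases tested, both PDGF receptors included, 3 were higher in SHF and 1 higher in CNC at an unadjusted p under 0.05, against 2.69% and 3.17% of all genes tested, and 0 passed the adjusted limma test. *Flt4* and *Erbb4* passed the filter on low values only through their SHF libraries, so the filter partly sets the SHF count. Those higher in SHF were *Erbb4*, a neuregulin receptor (3.17 to 59.1 TPM in SHF, 0 to 0.25 TPM in CNC), *Flt4*, the lymphatic VEGF receptor (1.31 to 12.7 TPM in SHF, listed at 0 in CNC), and *Epha7*, an ephrin receptor (45.7 to 115.9 TPM in SHF, 4.08 to 42.4 TPM in CNC). The gene higher in CNC was *Epha3*, also an ephrin receptor, at 2.54 to 48.0 TPM in SHF and 33.6 to 141.8 TPM in CNC libraries, and its lineages overlapped. Of 4 tested pericyte genes 0 passed the adjusted limma test, 2 had a log2 difference above 0 and 2 below. *Abcc9*, a potassium channel subunit found in pericytes, was at 66.7 to 82.5 TPM in SHF and 138 to 194 TPM in CNC libraries, and was the 1 gene of the 4 higher in every CNC library than in any SHF library, against 5.68% of all genes tested. *Kcnj8*, the channel that *Abcc9* joins, was at 62.7 to 114.6 TPM in SHF and 109.7 to 168.0 TPM in CNC libraries. *Rgs5* was at 66.2 to 311 TPM in SHF and 93.0 to 138.9 TPM in CNC libraries and *Ndufa4l2* at 48.9 to 54.1 TPM and 10.3 to 97.8 TPM, and the lineages of all 3 overlapped.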
